A study of Mus musculus with 41 samples.

Results

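The 6 libraries described here measured how many ribosomes sat on each mRNA of control mouse embryonic fibroblasts (MEFs): 3 ribosome footprint libraries and 3 RNA libraries, of 41 libraries in the series. They were chosen by their labels alone, as the control footprint libraries sequenced with the Hbs1l cells and the control RNA libraries. Of 22438 genes in the footprint table, 12705 had enough counts to be tested. The series studies mice and cells lacking Hbs1l or Pelo, which rescue stalled ribosomes, or Upf2, a nonsense-mediated decay factor. All 6 libraries came from C57BL/6 MEFs of genotype CAG-Cre ER that had been treated with tamoxifen, so the controls carried the Cre transgene and had received its inducer, but no gene was targeted. CAG is a broadly active promoter. Per the study's methods, control and mutant MEFs alike were homozygous for the C57BL/6J allele of n-Tr20, a mutation that impairs the processing of an arginine tRNA gene expressed mainly in the nervous system. The cells were primary, isolated from embryos in mid-gestation, each RNA library from 1 dish of 1 embryo and each footprint library from pooled dishes of 1 embryo. The footprint libraries were labelled Batch 3 and the RNA libraries Batch 6, so that assay and batch cannot be told apart in any ratio given here. Nothing in the labels tied a footprint library to an RNA library of the same embryo.

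A ribosome covers a short stretch of mRNA, and nuclease digestion of everything else leaves a footprint whose position shows which codons were being read. The number of footprints on a coding sequence (CDS), divided by the amount of its mRNA, is called translation efficiency (TE). It depends on how often ribosomes start on the mRNA and how fast they move along it. mRNAs are known to differ in TE through upstream open reading frames (uORFs), structures that bind regulatory proteins, and the terminal oligopyrimidine (TOP) tract at the start of mRNAs for ribosomal proteins and translation factors.

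The footprint libraries held between 11236276 and 13614532 counted footprints, and the RNA libraries between 22713643 and 77329534 estimated counts. Levels are given per length: RNA as TPM, the length-scaled unit in which each library has the same total, and footprints as footprint TPM, the footprints per kilobase of CDS scaled to that total. Of 14 fibroblast markers, 11 had at least 10 RNA TPM, and their summed RNA lay between 5190 and 7069 TPM. Among 5 smooth muscle markers, all were above 10 RNA TPM and the sum lay between 12154 and 13816 TPM, led by Acta2, an actin of contractile cells. Sums of 5 markers each were between 15.3 and 20.6 TPM for endothelium, 8.53 and 14.7 TPM for macrophages and blood, 12.7 and 21.8 TPM for skeletal muscle, 31.8 and 40.4 TPM for epithelium, 45.5 and 69.8 TPM for neural cells, 37.2 and 54.5 TPM for chondrocytes, and 0.032 and 0.465 TPM for erythroid cells. The part of these other cells in the results was not tested.

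Footprints followed RNA over most of the range, and a broad band of genes departed from it. A typical gene had 2.30 times as many footprint TPM as RNA TPM, and log2 TE is the departure from that ratio, 0 for a typical gene. Genes between the 5th and the 95th percentile ran from -3.08 to 1.77, against a median standard error (SE) of 0.13 for a single gene. The adjusted p was at most 0.05 for 9438 of 12705 genes (74.3%), and a call also required a difference of at least 2-fold. High TE was called for 2217 genes (17.4%) and low TE for 2524 (19.9%). Once footprint TPM was divided by the typical ratio, the 3 footprint values and the 3 RNA values did not overlap for 2197 of the high and 2506 of the low genes, against 74.3% of all tested genes. Across genes, mean footprint and RNA levels had a Spearman correlation of 0.86 over 12533 genes with both values above 0. This describes genes, which are not independent replicates, and levels that share the annotation.

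Many genes of the low tail share their CDS with other loci. Of 330 genes for which under 10% of the 28-base windows of the CDS were found in transcripts of 1 locus only, 314 were called low and the median log2 TE was -5.79. The median was -1.83 for 492 genes between 10% and 50%, -0.37 for 910 genes between 50% and 90%, and 0.11 for 10948 genes at 90% or more. Where over 50% of the CDS also lay in the CDS of another gene, 144 of 170 genes were low. Where over 50% of the RNA was on transcripts not annotated as protein coding, 317 of 852 were. The lowest genes with at least 10 RNA TPM included Rpl10-ps3, Nme2, Gm49909, Ctnnd1, Pakap, Gm49450, Sept2, Srp54a, Raver1, Nutf2-ps1 and Atn1, all with 0 footprints in each library. Every one of these either had no window of its own or lay wholly in the CDS of another gene, or both. Against a floor of 3 footprints per library, Rpl10-ps3 was at least 9896-fold and Atn1 at least 550-fold below the typical gene. Gapdh, the glycolytic enzyme with many pseudogene copies, had 8, 8 and 6 footprints beside 2785, 3516 and 4054 RNA TPM. The part in these values of reads with several alignments was not tested.

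**Figure D1:**
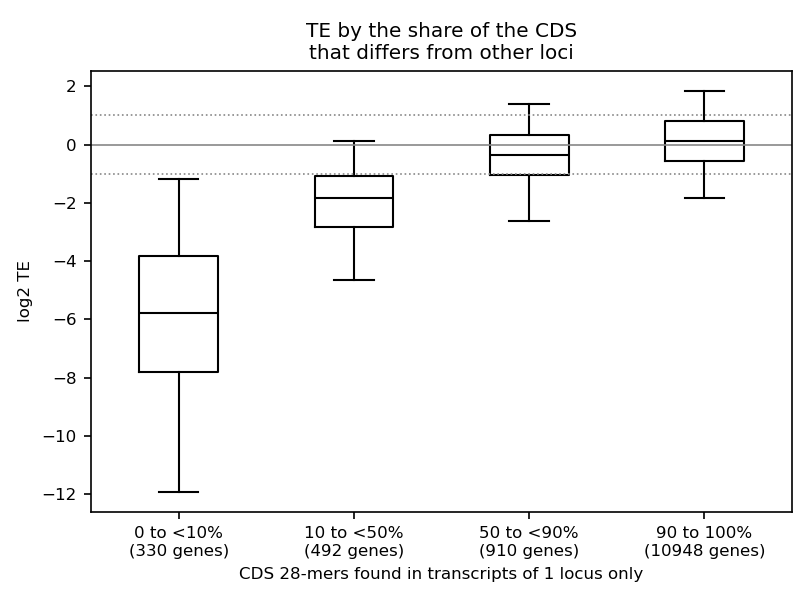
Box plot of log2 TE (0 is a typical gene) by the share of 28-base CDS windows found in transcripts of 1 locus only; boxes are quartiles with the median, whiskers the 5th and 95th percentiles of genes, dotted lines the call thresholds. The median falls from 0.11 where the CDS is its own to -5.79 where under 10% of it is.

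Below, 9858 genes are called cleanly countable: at least 90% of windows in 1 locus, at most 10% of the CDS inside that of another gene, at most 50% of RNA on non-coding transcripts, and a CDS, weighted by RNA over the transcripts, of at least 50% of the longest annotated one. These limits were chosen after the values had been seen. The set held 1989 high genes (20.2% of it) and 1190 low genes (12.1%), with a median of 0.17. Thus 52.9% of all low calls and 10.3% of all high calls fell outside it. A fit on this set alone, which recentres it, gave 1637 high and 1508 low genes. Its Spearman correlation of footprints with RNA was 0.90 over 9838 genes.

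**Figure D2:**
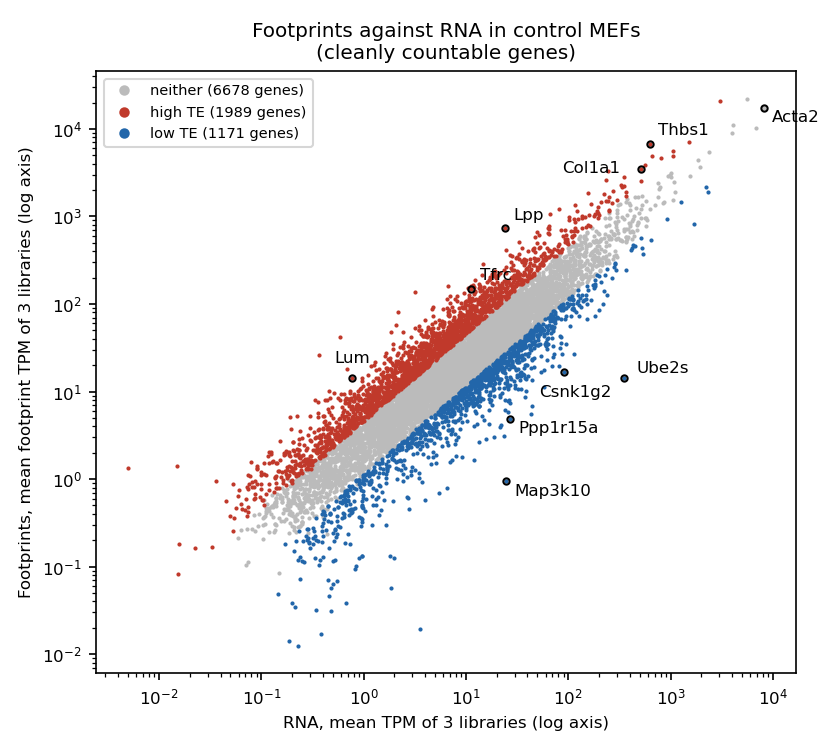
Mean footprint TPM against mean RNA TPM (both log axes, means of 3 libraries) for cleanly countable genes with both above 0; red points are genes called high, blue points genes called low, grey points neither. The band of uncalled genes runs along the diagonal, with Lpp and Thbs1 above it and Map3k10 and Ube2s below.

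The highest TE among genes with at least 10 RNA TPM was that of Lpp, a protein of focal adhesions. It had 728, 769 and 716 footprint TPM beside 16.8, 32.0 and 23.8 RNA TPM, all footprint values far above all RNA values, and a log2 TE of 3.75 (SE 0.16, adjusted p = 1.2e-09), or 13.4-fold. Dpysl2, a microtubule-binding protein, had 276, 300.0 and 279 footprint TPM beside 15.8, 14.96 and 13.4 RNA TPM, a log2 TE of 3.07 (SE 0.12). Next came Sf3b5, a small splicing factor subunit, at 2.84 (SE 0.10), Sh3bgrl at 2.78, the integrin chain Itgav at 2.75, the matrix proteoglycan Vcan at 2.75, Tmed5 at 2.71, the metalloproteinase inhibitor Timp3 at 2.70, Peg10 at 2.66, Emc7 at 2.64, Polr3k at 2.57 and the adhesion molecule Ncam1 at 2.56. All 12 were cleanly countable. The length of the mRNA entered these values: with no length offsets Lpp lay at 1.64, and Sh3bgrl (0.91), Timp3 (0.67), Emc7 (0.57), Polr3k (0.48) and Sf3b5 (-0.14) were not called. Itgav and Vcan had the widest RNA values, 23.7, 45.8 and 29.9 TPM and 7.58, 16.5 and 12.9 TPM, with RNA replicate 1 lowest in both.

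Among cleanly countable genes with at least 10 RNA TPM, Olfr907, an olfactory receptor, was lowest, with 0 footprints in each library beside 51.0, 31.3 and 32.7 RNA TPM, at least 271-fold below the typical gene. Map3k10, a kinase upstream of the JNK pathway, had 16, 20 and 8 footprints, or 1.09, 1.18 and 0.57 footprint TPM, beside 27.95, 24.8 and 21.1 RNA TPM and a log2 TE of -5.89 (SE 0.25, adjusted p = 8.6e-10). Ube2s, the ubiquitin chain-extending enzyme of the anaphase-promoting complex, had 12.5, 15.8 and 14.9 footprint TPM beside 324, 344 and 378 RNA TPM, a log2 TE of -5.80 (SE 0.12). It was the most abundant of these mRNAs. The microtubule-actin linker Gas2l1 lay at -4.16, St6galnac6 at -4.14, Nsmf at -4.08, Wbp1 at -3.90, the acyltransferase Zdhhc4 at -3.86, the mitochondrial carrier Ucp2 at -3.70 (SE 0.28), Ppp1r15a at -3.66, the kinase Csnk1g2 at -3.65, B4galt2 at -3.63 and Metrn at -3.62. For Gas2l1, 47.7% of the RNA was on transcripts not annotated as protein coding, and the share was 31.1% for Ucp2 and 26.9% for Map3k10.

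**Figure D3:**
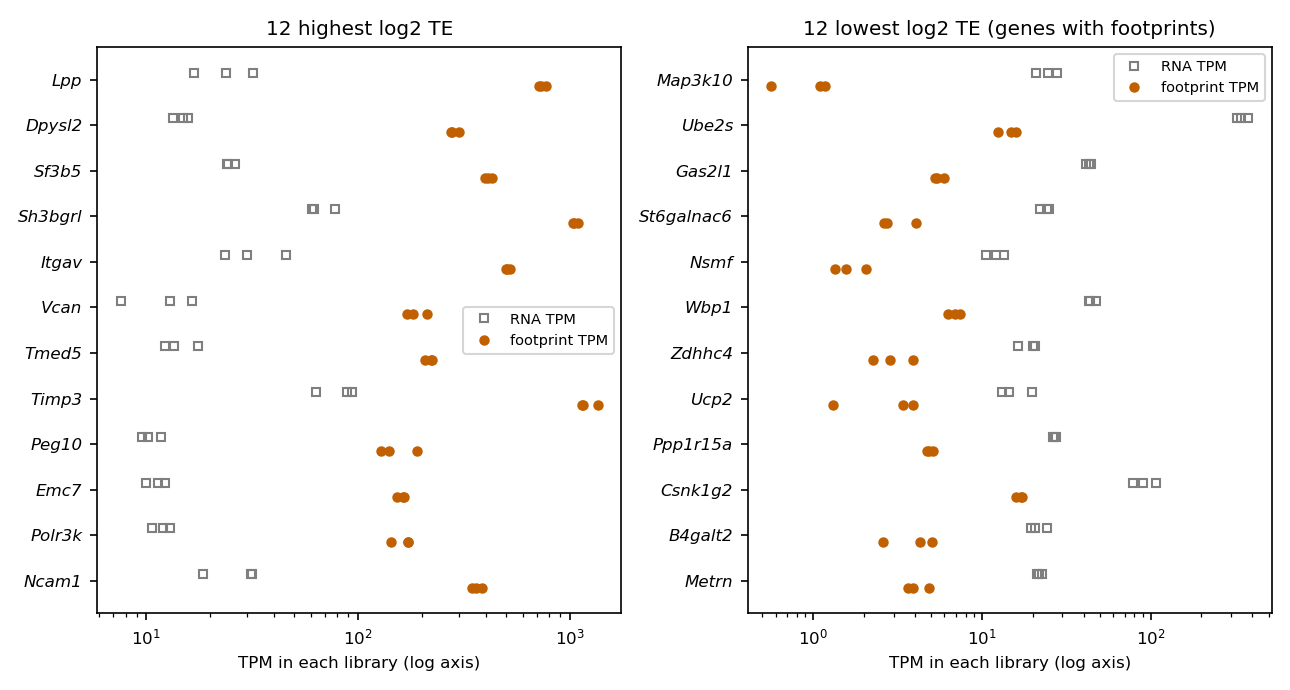
Footprint TPM (filled circles) and RNA TPM (open squares) in each of the 3 libraries of either assay (log axes), for the 12 cleanly countable genes with the highest and the 12 with the lowest log2 TE that had at least 10 RNA TPM and any footprints. Footprints lie far to the right of RNA in the left panel and to the left of it in the right panel.

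The bases around the start codon are shown for some of these genes, since they are the ones a scanning ribosome reads last before it starts. Each run is 5′ to 3′ from the Gencode M21 transcript with the most RNA, with GRCm38 position and strand, 9 bases before the start codon and 1 after it, and the start codon in capitals. The first 4 genes had high TE and the last 4 low TE, and the run of Ube2s spans a splice junction.
Lpp (chr16:24608116-24608128, +): atttccacaATGt
Dpysl2 (chr14:66868365-66868377, -): cccggagagATGt
Sf3b5 (chr10:13008614-13008626, +): agcggcgcgATGa
Sh3bgrl (chrX:109095584-109095596, +): gtttccaggATGg
Map3k10 (chr7:27674021-27674033, -): ccctcccccATGg
Ube2s (chr7:4811556-4812174, -): gctgaagtcATGa
Gas2l1 (chr11:5064455-5064467, -): gctctgggcATGg
Nsmf (chr2:25054592-25054604, +): gccgtgaccATGg
A purine 3 bases before the start codon together with a G right after it, the pattern named after Kozak, was present in 43.3% of 1947 high genes, 42.8% of 1151 low genes and 44.9% of all 9633 cleanly countable genes with such a sequence.

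The matrix genes were among the lists with the highest median TE. Of 19 fibrillar and network collagens, 11 were high and none low, against 17.4% and 19.9% of all genes and 20.2% and 12.1% of the cleanly countable ones, with a median log2 TE of 1.19 against -0.02 for all genes and 0.17 for the cleanly countable ones. Of 39 other matrix proteins and matrix enzymes, 27 were high and 1 was low, with a median of 1.51. Col12a1, a fibril-associated collagen, had 717, 691 and 774 footprint TPM beside 41.6, 81.2 and 70.8 RNA TPM, a log2 TE of 2.31 (SE 0.16). Col8a1, a network collagen, lay at 2.43 (SE 0.14), and Col3a1 at 0.67 (SE 0.17), which did not reach 2-fold. Lum, a small proteoglycan that binds collagen fibrils, had 17.4, 13.4 and 12.2 footprint TPM beside only 0.479, 0.781 and 1.03 RNA TPM, a log2 TE of 2.97 (SE 0.23). Its relative Ogn lay at 2.96, the collagen crosslinking enzyme Lox at 2.55 and the microfibril protein Fbn1 at 2.09. Loxl2 was the low gene, at -1.92, but only 8.21% of its windows were in 1 locus.

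Several matrix genes were among the genes with most footprints. Thbs1, a matrix glycoprotein, held 1.96% of all footprints, with 6703, 7381 and 6307 footprint TPM beside 468, 784 and 619 RNA TPM and a log2 TE of 2.26 (SE 0.15). Fn1, the fibronectin gene, held 1.64% and had a log2 TE of 1.83, Col1a1 held 1.24% at 1.55, and Tnc held 0.70% at 1.87. The cytoskeletal genes among them were not called. Actb held 1.49% at a log2 TE of 0.43, but only 50.6% of its windows were in 1 locus. With the CDS length reduced to those windows and all counts kept, it lay at 1.32, which passed the call. Acta2 held 1.48% at -0.12 (adjusted p = 0.37), Vim 1.02% at -0.04 (adjusted p = 0.73) and Flna 0.55% at -0.37. The matrix glycoprotein Sparc, also among the 10 genes with most footprints, lay at 1.01, close to the limit of a call, and at 0.53 with no length offsets. Per length, 3 of the 4 cytoskeletal genes were above Thbs1: footprint TPM was 17390 ± 1024 (SD, n = 3) for Acta2, 16271 ± 956 for Actb and 9023 ± 303 for Vim, against 6797 ± 543 for Thbs1, while that of Flna was 846 ± 52.5. The actin cytoskeleton list held 7.98% of all footprint TPM, the collagens 0.90% and the other matrix genes 4.28%.

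RNA replicate 1 stood apart in this group. It was the lowest RNA library for 56 of 58 matrix genes (96.6%) and for 72.6% of all tested genes, with a median ratio to the other two of 0.61 for matrix genes and 0.84 for all. The footprint libraries showed no such gap, with a median ratio of footprint replicate 1 to the others of 1.00 for matrix genes. Without RNA replicate 1 the collagens had 10 high genes and a median of 1.03, and the other matrix genes 26 and 1.42.

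Receptors of growth factors and most proteins of the lysosome are, like matrix proteins, made on the endoplasmic reticulum. Of 24 growth factor and TGF beta receptors, all cleanly countable, 16 were high and 1 low, against 20.2% and 12.1% of cleanly countable and 17.4% and 19.9% of all genes, with a median of 1.25. Bmpr2, a bone morphogenetic protein receptor, had 53.2, 51.4 and 51.9 footprint TPM beside 2.74, 6.10 and 3.90 RNA TPM, a log2 TE of 2.44 (SE 0.18). Egfr, the epidermal growth factor receptor, lay at 2.28 (SE 0.12), Tgfbr1 at 2.04 and Pdgfra at 1.80 (SE 0.33). Fgfr1 lay at -0.69 and Lrp5, a Wnt co-receptor, at -1.04 (SE 0.11). Of 34 lysosome genes, 11 were high, 22 were not called and 1 was low, with a median of 0.80. The membrane protein Lamp2 had 634, 639 and 686 footprint TPM beside 55.9, 71.7 and 62.3 RNA TPM, a log2 TE of 2.17 (SE 0.09), Scarb2 lay at 2.09, the cholesterol carrier Npc2 at 2.07 and the protease Ctsl at 1.61. With no length offsets Npc2 lay at -0.03 and Lrp5 at -0.50. Of 23 cholesterol synthesis genes, 7 were high and 4 low, with a median of 0.14, and of the 18 cleanly countable ones 7 were high and 1 low, with a median of 0.75. When length was left out, 4 of the 23 were high and 5 low, near the 15% and 20.1% of all genes in that fit. Hmgcs1, which makes HMG-CoA (1.51), and the sterol demethylase Cyp51 (1.48) were high, Cyp51 just short of a call at 0.99 with no length offsets, and Mvk, the kinase of mevalonate, lay at -1.81 (SE 0.11).

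Cells induce the genes of some transcription factors and other short-lived regulators at once on stimulation. Of 40 immediate early and related genes, 21 were high and 1 low, against 17.4% and 19.9% of all genes, with a median of 1.13. The AP-1 subunit Fosl2 had 143, 142 and 139.9 footprint TPM beside 11.7, 15.4 and 13.7 RNA TPM, a log2 TE of 2.18 (SE 0.09). Sox9 lay at 2.01, Jun at 1.65, Egr1 at 1.55 (SE 0.23) and Fos at 1.20. Myc lay at 0.85, under 2-fold, and Jund at -0.68. The low gene, Klf10, had 444, 434 and 443 footprint TPM beside 65639, 92463 and 99505 RNA TPM. Its weighted CDS was far shorter than its longest one, so that it is not cleanly countable. These RNA values were far above those of Actb, at 4733, 5491 and 5528 TPM. How much Klf10 mRNA they reflect was not tested. With no length offsets 9 of the genes were high and 2 low, against 15% and 20.1% of all genes, and the median was 0.48. Fosl2 then lay at 0.20 and Jun at 0.72, neither of them called.

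**Figure D4:**
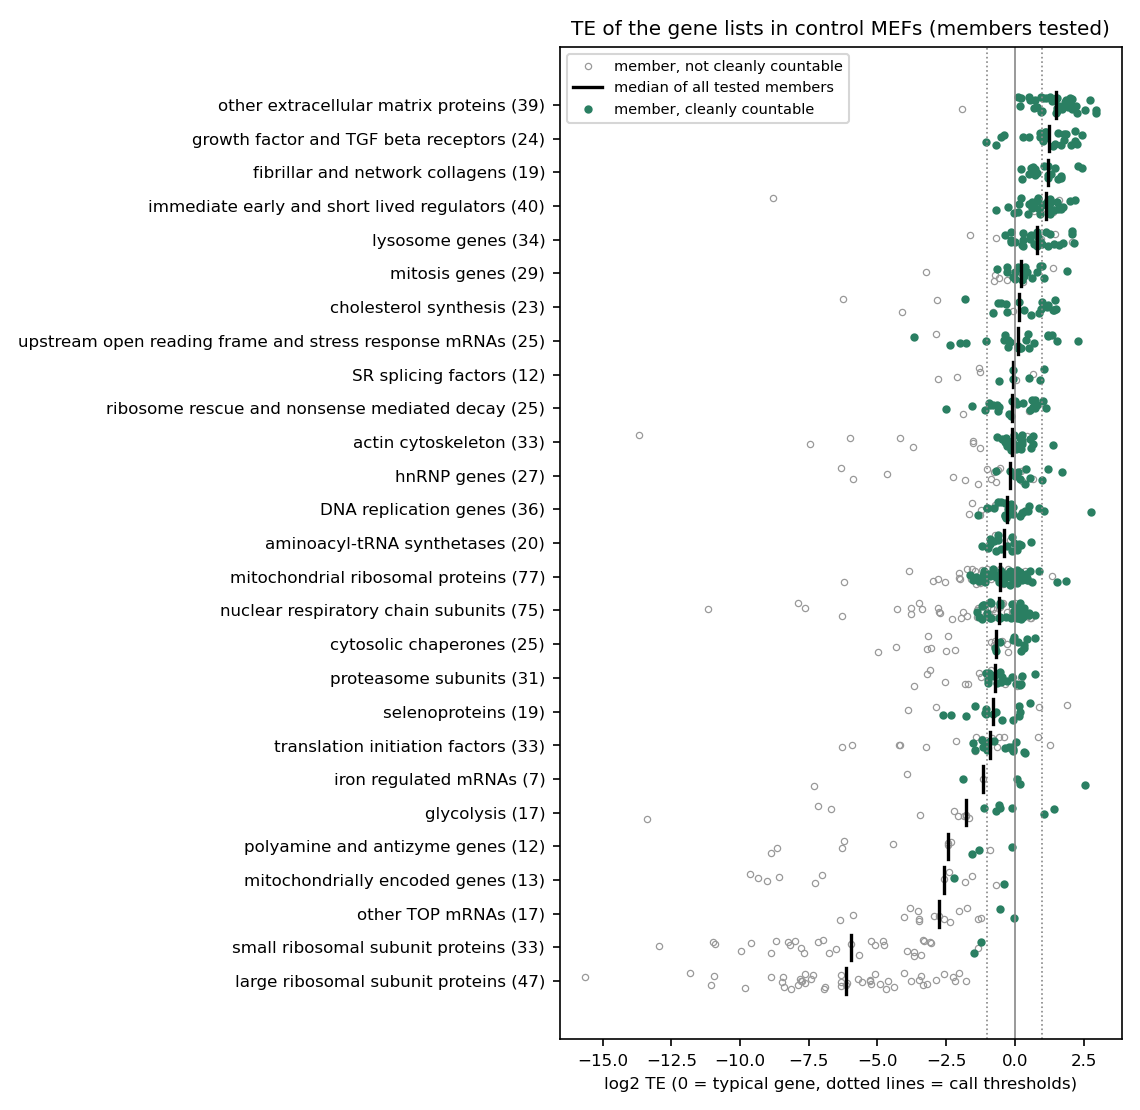
Log2 TE (0 is a typical gene, dotted lines are the call thresholds) of each member of the 27 gene lists, with the number tested in brackets; filled points are cleanly countable genes, open points the others, black bars the median of all tested members. Matrix genes and receptors lie to the right, and ribosomal proteins lie far to the left with nearly all points open.

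The uORF and stress response list held genes at either end. Of 25 genes, 5 (20%) were high and 7 (28%) low, against 17.4% and 19.9% of all genes, with a median of 0.11, and with no length offsets 5 were high and 5 low and the median was -0.29. Ppp1r15a, which directs dephosphorylation of the initiation factor eIF2, had 5.13, 4.84 and 4.70 footprint TPM beside 26.3, 26.8 and 27.3 RNA TPM, a log2 TE of -3.66 (SE 0.11, adjusted p = 6.4e-11). Atf5 had 74.0, 65.0 and 63.3 footprint TPM beside 112, 159.5 and 182 RNA TPM, a log2 TE of -2.36 (SE 0.13). Atf4, the main transcription factor of the integrated stress response, had 75.6, 63.9 and 78.6 footprint TPM beside 103, 135 and 140 RNA TPM, a log2 TE of -1.99 (SE 0.10). All footprint values of Atf4 and Atf5 were below all their RNA values, where a typical gene has footprints well above RNA. The high members were Cebpb at 2.30 (SE 0.20), Cdkn1b at 1.53, Eif2ak2 at 1.36, Mdm2 at 1.22 and the endoplasmic reticulum chaperone Hspa5 at 1.22. With no length offsets Cdkn1b lay at 0.39 and Eif2ak2 at 0.92.

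Some uORFs in the annotated 5′ UTR of low members are shown because ribosomes reach them before the CDS. A further frame of 37 codons in Atf4, frames of 46 and 35 codons in Ppp1r15a and one of 32 codons in Ddit3 are not printed, and frames of the high members were not extracted. The annotated 5′ UTR held 3 ATG each in Atf4 and Ppp1r15a and 2 each in Atf5 and Ddit3. It held 12 in Slc35a4, 4 in Ibtk and none in Mtch2, the other low members, which lay at -2.86, -1.06 and -1.045, or at -3.20, -0.48 and -0.62 with no length offsets. Mtch2 lay at 0.94 when RNA was taken from protein-coding transcripts alone, and without footprint replicate 2 Ibtk (-0.91) and Mtch2 (-0.99) were not called. Among the high members it held 2 in Mdm2, 1 in Eif2ak2 and none in Cebpb, Cdkn1b and Hspa5. Capitals mark the start codon and, where the whole frame is shown, the stop codon. Up to 30 bases are given, and the longer frames run on. The overlapping frames of Atf4 and Atf5 end inside the CDS, and their runs span a splice junction.
Atf4, frame of 4 codons (chr15:80255582-80255593, +): ATGgcgtatTAG
Atf4, overlapping frame of 60 codons (chr15:80255681-80256231, +): ATGgcgctcttcacgaaatccagcagcagt
Atf5, frame of 4 codons (chr7:44816526-44816537, -): ATGgctctgTAG
Atf5, overlapping frame of 59 codons (chr7:44815258-44816406, -): ATGgagtcctccaccttcgccttggtgcct
Ppp1r15a, frame of 27 codons (chr7:45526060-45526089, -): ATGaacccgctggcttcgcgagcagtccgg
Ddit3, frame of 35 codons (chr10:127290829-127290858, +): ATGttgaagatgagcgggtggcagcgacag
The codon counts include the stop. Across the cleanly countable genes, 63.8% of low genes had at least 1 ATG in the 5′ UTR, against 51.2% of high genes and 51.3% of all.

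For Ddit3, a pro-apoptotic transcription factor, the annotation holds the uORF as a gene model of its own, and so its footprints could be set beside those of the CDS. The uORF model (ENSMUSG00000116429.1) had 153, 163 and 137 footprints, or 157, 144 and 145 footprint TPM, and was listed at 0 RNA in each library. The CDS of the main model (ENSMUSG00000025408.15) had 29.5, 24.5 and 26.7 footprint TPM beside 35.7, 37.2 and 45.8 RNA TPM, a log2 TE of -1.76 (SE 0.13). The uORF thus carried 5.55 ± 0.29 (SD, n = 3) times the footprint density of the CDS, with no overlap between libraries. The uORF model was 102 bases long and the weighted CDS 499 bases. The part of frame length in the ratio was not tested. Both frames lie on the same annotated mRNA, and RNA enters the ratio only through the CDS length, which is weighted by RNA over the transcripts.

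The iron-regulated mRNAs lay at opposite ends. Iron regulatory proteins bind a hairpin, the iron-responsive element, whose loop reads CAGTGN in DNA letters. In the 5′ UTR it is known to block initiation, and in the 3′ UTR of Tfrc to protect the mRNA from decay. Tfrc, the transferrin receptor through which cells take up iron, had 155, 136 and 158 footprint TPM beside 8.87, 14.0 and 11.1 RNA TPM, a log2 TE of 2.54 (SE 0.12, adjusted p = 2.3e-09). Fth1, the heavy chain of ferritin, which stores iron, had 126, 145 and 129.9 footprint TPM beside 883, 888 and 880 RNA TPM, a log2 TE of -3.93 (SE 0.11). Ftl1, the light chain, had 92.7, 129.7 and 94.9 footprint TPM beside 7253, 6862 and 7529 RNA TPM and a log2 TE of -7.30. Both ferritins have copies: 73.8% of windows of Fth1 and 10.7% of Ftl1 were in 1 locus. With the CDS length reduced to those windows, log2 TE was -3.59 and -4.17. The iron exporter Slc40a1 lay at -1.90 (SE 0.39) but on 2, 8 and 7 footprints, and at -0.79, no call, in cells lacking Hbs1l. Epas1 (0.09) and Slc11a2 (0.20) were not called.

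The matches to CAGTG in some of these UTRs are given with 12 bases before and the loop letters in capitals: the match in each of 4 5′ UTRs, among them that of Epas1, which was not called, and 3 of the 8 matches in the 3′ UTR of Tfrc. The 3′ UTR of Slc11a2, which was not called either, held 6 matches, not printed. CAGTG overlaps no other motif searched here and was sought on the mRNA strand only.
Fth1 5′ UTR (chr19:9982732-9982761, +): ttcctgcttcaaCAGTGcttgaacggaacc
Ftl1 5′ UTR (chr7:45459778-45459807, -): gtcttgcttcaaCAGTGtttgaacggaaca
Slc40a1 5′ UTR (chr1:45925464-45925493, -): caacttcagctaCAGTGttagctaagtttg
Epas1 5′ UTR (chr17:86753768-86753797, +): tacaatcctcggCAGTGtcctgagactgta
Tfrc 3′ UTR (chr16:32631219-32631248, +): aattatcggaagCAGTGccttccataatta
Tfrc 3′ UTR (chr16:32631598-32631627, +): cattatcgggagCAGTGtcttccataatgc
Tfrc 3′ UTR (chr16:32631710-32631739, +): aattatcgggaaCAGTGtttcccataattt
These 5 letters alone are common, being present in the 5′ UTR of 2695 of 12448 genes (21.7%) and the 3′ UTR of 69.8% of 12488 genes.

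Ribosomal protein genes were all called low, and nearly all of them share much of their CDS with copies at other loci. All 47 proteins of the large subunit and all 33 of the small subunit were low, with medians of -6.16 and -5.96. The median share of windows in 1 locus was 0.22% and 4.13%, and only 2 of these genes were cleanly countable. Among them was Rack1, the scaffold protein on the head of the small subunit, with 2212, 2136 and 2174 footprint TPM beside 2205, 2042 and 2403 RNA TPM and a log2 TE of -1.24 (SE 0.11), or -0.86 and no call with no length offsets. In a further fit the CDS length was reduced to the windows in 1 locus, with all footprints and RNA kept. In that fit 16.3% of 12358 genes were low. Among genes with at least 10% of such windows, 7 of 11 large and 9 of 11 small subunit genes were low. Their medians were -1.60 and -1.51. Rpl4 had a log2 TE of -1.32 and Rpl8 of -1.71 on that scale. Of 17 other TOP mRNAs, 15 were low with a median of -2.76, and with the reduced CDS length 6 of 13 with a median of -0.62. The elongation factors Eef2 and Eef1b2 then lay at -1.29 and -1.59 and the poly(A)-binding protein Pabpc1 at -2.53. Eif3f (-0.54) and Vim (-0.04), the 2 cleanly countable members, were not called.

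The TOP tract is a C at the first base of the mRNA followed by pyrimidines. The first 20 bases of the transcript with the most RNA are shown for 4 low genes that had this form in the annotation and for Eif3f, which had it and was not called, with the tract in capitals.
Rack1 (chr11:48800360-48800379, +): CTTTTTCTCCacagggtcgt
Rpl4 (chr9:64173375-64173394, +): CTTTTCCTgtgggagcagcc
Eef1b2 (chr1:63177130-63177149, +): CTTTTTTTCCCTCagcgctg
Pabpc1 (chr15:36608954-36608973, -): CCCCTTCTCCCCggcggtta
Eif3f (chr7:108934417-108934436, +): CTCTTTCTCggcaagatggc
A C followed by at least 4 pyrimidines opened the annotated transcript of 7 of 47 large subunit genes, 5 of 33 small subunit genes and 4 of 17 other TOP genes, against 298 of all genes (2.35%). Among cleanly countable genes it opened 2.61% of low, 2.56% of high and 2.15% of all. Annotated starts are not measured starts, and the remaining genes of the list started otherwise in this annotation.

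Lists of translation factors and mitochondrial proteins had medians below the typical gene, less so for their cleanly countable members. Of 33 initiation factors, 1 was high and 14 were low, against 17.4% and 19.9% of all genes, with a median of -0.91. Among the 16 cleanly countable ones 5 were low and none high, against 12.1% and 20.2% of all cleanly countable genes, with a median of -0.56. Eif2b5, the catalytic subunit of the exchange factor of eIF2, lay at -1.52 (SE 0.09) and Eif3b at -1.44 (SE 0.10). With no length offsets they lay at -0.99, which is no call, and -1.01. Of 77 mitochondrial ribosomal proteins, 3 were high and 29 low (median -0.55). Of the 43 cleanly countable ones 2 were high and 9 low (median -0.29), against 20.2% and 12.1% of all cleanly countable genes. These ranged from Mrpl54 at -1.62 to Mrpl50 at 1.87, or 0.75 with no length offsets. No nuclear-encoded respiratory chain subunit was high and 29 of 75 were low (median -0.58). Of the 35 cleanly countable subunits 7 were low, against 12.1% of all cleanly countable genes, with a median of -0.13. Without length offsets the medians were -0.499 for the initiation factors, -0.29 for the mitochondrial ribosomal proteins and -0.22 for the respiratory chain. In that fit 11, 20 and 19 of their genes were low, against 20.1% of all genes. Of 13 genes encoded by mitochondrial DNA, which are read by mitochondrial ribosomes, 11 were low with a median of -2.57. With no length offsets 7 were low, with a median of -1.26. With the CDS length reduced to windows in 1 locus, 5 of 8 were low, with a median of -1.45. The 2 countable ones, mt-Nd1 (-2.21, SE 0.17) and mt-Cytb (-0.41, SE 0.16), differed. Without length offsets mt-Nd1 lay at -0.90 and was not called, and mt-Cytb turned its sign to 0.82. RNA purified by its poly(A) tail need not hold all mitochondrial mRNA alike.

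In polyamine genes the ribosome is known to shift frame or to be halted by a uORF that senses the product, and in selenoproteins it reads a stop codon. Of 12 polyamine genes 10 were low and none high, against 19.9% and 17.4% of all genes, with a median of -2.44. With the CDS length reduced to windows in 1 locus, 4 of 8 were low, against 16.3%, with a median of -1.18. Most have copies, and the 3 countable ones were Azin2 (-1.58, SE 0.14), Smox (-1.30, SE 0.13) and the antizyme inhibitor Azin1 (-0.09). Odc1, the first enzyme of the pathway, lay at -4.45, or -1.87 with that reduced length. Amd1, whose uORF is printed here whole with its start and stop codon in capitals, had 0, 2 and 4 footprints and not 1 window in 1 locus only. Azin1, which was not called, has 6 such frames in its annotated 5′ UTR, not printed.
Amd1, frame of 7 codons (chr10:40302155-40302175, -): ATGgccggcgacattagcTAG
Of 19 selenoproteins, 9 were low and 1 high, with a median of -0.80, and of 15 countable ones 7 were low, against 12.1% of all countable genes, and none high. Without length offsets 8 of the 19 were low and the median was -0.40. Selenoh had 36.1, 28.8 and 29.0 footprint TPM beside 79.7, 79.9 and 88.8 RNA TPM, a log2 TE of -2.61 (SE 0.13). Selenow lay at -2.33 (SE 0.12) and the peroxidase Gpx1 at -1.47 (SE 0.13).

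The other housekeeping lists are to be read against 19.9% low among all and 12.1% among cleanly countable genes. The medians of glycolysis, the proteasome and the chaperones lay nearer the typical gene among cleanly countable members. That of the synthetases stayed at -0.39. Those of the SR and hnRNP splicing and RNA-binding lists went from -0.06 to 0.23 and from -0.17 to 0.38. Glycolysis had 11 low genes of 17 and a median of -1.77, but a median of -0.55 and 1 low gene among 7 countable ones. Proteasome subunits (9 low of 31, median -0.74) had 1 low gene among 17 countable ones, and cytosolic chaperones (8 low of 25, median -0.68) none among 11. Aminoacyl-tRNA synthetases had few copies and a narrow range, from -1.20 for Sars to 0.58 for Dars, with 1 low gene of 20 and a median of -0.39, and Sars at -0.72 with no length offsets. Actin cytoskeleton genes had 1 high gene, the adhesion protein Vcl at 1.39 (SE 0.11), 8 low genes of 33 and none low among 24 countable ones. DNA replication genes had a median of -0.28 over 36 and mitosis genes 0.24 over 29. Among the mitosis genes, Cenpf, a protein of the kinetochore, lay at 1.89 (SE 0.11). Splicing factors of the SR family had 1 high and 4 low genes of 12, and hnRNP genes 2 high and 7 low of 27, against 17.4% and 19.9% of all genes, with no low gene among the countable 6 and 11. Without length offsets the replication genes had 3 low genes in place of 7 and a median of 0.02. The mitosis genes then had 9 high genes in place of 3 and a median of 0.72. Of all genes in that fit, 15% were high and 20.1% low. The proteasome, the chaperones and the synthetases had medians of -0.27, -0.08 and -0.09 there.

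The rescue and nonsense-mediated decay genes, the subject of the series, had a median of -0.10 over 25, with 2 high and 4 low, against 17.4% and 19.9% of all genes. When length was left out, 6 were high and 5 low, against 15% and 20.1% of all genes in that fit, and the median was 0.26. In cells lacking Hbs1l 7 were high and 5 low, against 20.6% and 21.9% of all genes there, with a median of -0.32. Hbs1l itself, the gene deleted in those cells, lay at -3.43 there. Hbs1l had 21.4, 23.4 and 19.9 footprint TPM beside 29.0, 37.6 and 38.3 RNA TPM, a log2 TE of -1.89 (SE 0.10), with 80.5% of its windows in 1 locus. Its partner Pelo had 35.6, 37.1 and 29.5 footprint TPM beside 14.8, 16.9 and 17.5 RNA TPM, a log2 TE of -0.15 (adjusted p = 0.25). Upf2 had 17.9, 15.7 and 19.99 footprint TPM beside 3.82, 5.63 and 4.51 RNA TPM, a log2 TE of 0.75 (SE 0.12), under 2-fold. The lowest was Smg5, which recruits decay enzymes, at -2.52 (SE 0.09), followed by Tcf25 at -1.58 among the countable ones.

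Histone genes were kept out of the fit by their name prefixes, as in the study's methods. Replication-dependent histone mRNAs are known to lack a poly(A) tail, and the RNA libraries were made from poly(A) RNA. The part of this in the TE of histone genes was not tested. When they were kept in, 53 of 69 were high and 5 low, against 17.8% and 19.7% of all genes in that fit, with a median of 5.05.

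High and low genes differed in their mRNA structure. Among cleanly countable genes, the median annotated 3′ UTR was 2091 bases for high genes, 482 for low genes and 941.5 for all. The median GC content at the third codon position was 55.7%, 67.1% and 61.5%. The 5′ UTR was 213, 162.5 and 166 bases long and the CDS 1434, 1383 and 1449 bases. Median RNA was 3.82 TPM for high and 11.4 TPM for low genes. As a description across 9858 genes, log2 TE had a Spearman correlation of 0.47 with 3′ UTR length, -0.30 with that GC content, -0.23 with RNA TPM, which is also the denominator of TE, and 0.02 with CDS length. The relation with the 3′ UTR depended on dividing RNA by transcript length: with no length offsets its correlation was 0.07, and that with CDS length 0.34. The relation with GC kept its direction, at -0.49. By quintiles of 3′ UTR length, the median log2 TE went from -0.40 to 0.96 with length offsets and from 0.02 to 0.30 without. By quintiles of GC at the third codon position it went from 0.67 in the lowest to -0.11 in the highest, and from 0.87 to -0.39 without offsets. What moves TE with these features was not tested.

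**Figure D5:**
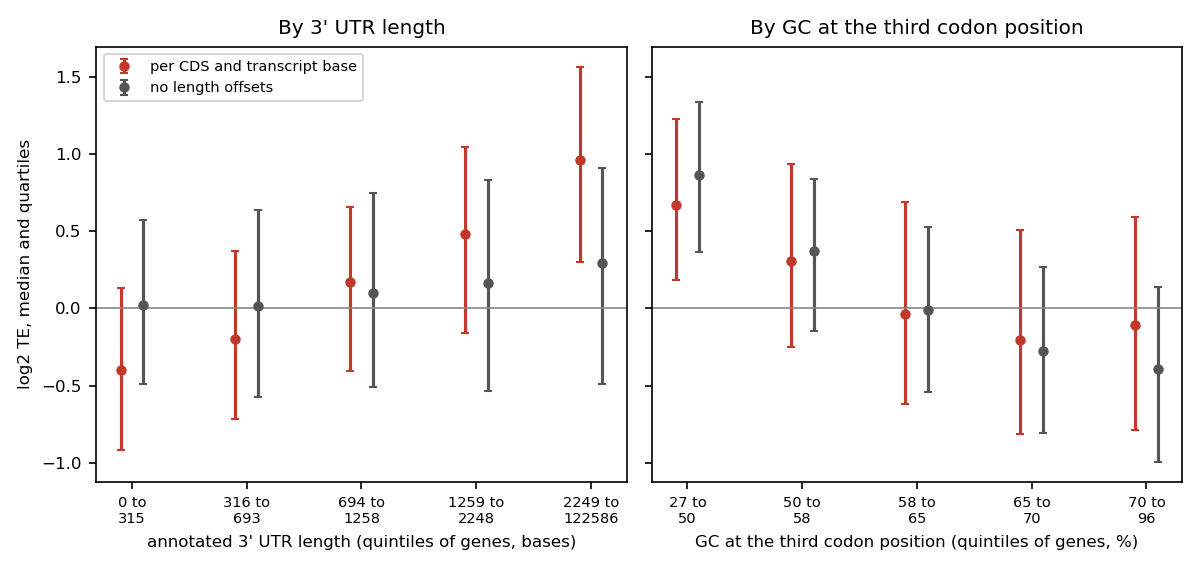
Median log2 TE (points) with quartiles (bars) in quintiles of cleanly countable genes by annotated 3′ UTR length (left, bases) and by GC at the third codon position (right, percent), with length offsets (red) and without (grey). The rise with 3′ UTR length from -0.40 to 0.96 shrinks to 0.02 to 0.30 without offsets, and the fall with GC remains.

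The same measure was taken in MEFs of the series that lack Hbs1l (Hbs1l-/-), which share no library with the controls. Of the 2217 high genes, 1942 (87.6%) were also high there, out of 2575 high in those cells among the genes tested in both, and 2288 of the 2524 low genes (90.6%) were also low, out of 2738. Only 3 high and 4 low genes had the opposite sign. All 12 leading high genes and all 13 leading low genes lay on the same side there, Lpp at 4.35, Map3k10 at -6.02 and Ube2s at -6.07. The immediate early genes had 12 high members there with a median of 0.66, and the collagens 8 with a median of 0.91. Of 113 called genes followed across settings, 4 fell short of a call there. They were Egr1 at 0.45, Fos at 0.79, Sparc at 0.64 and Slc40a1 at -0.79. The difference between the cells was not tested. Of those 2575 and 2738 calls, 75.4% and 83.6% were shared with the controls. Of the 12869 genes tested in the Hbs1l-/- cells, 20.6% were high and 21.9% low. The annotation and the counting were the same for both, and so were the batches: footprints of Batch 3 and RNA of Batch 6, so that assay and batch cannot be told apart there either.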

How the data were processed

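Members, gene lists and limits were chosen with earlier results of these data known. Per the labels and the study's methods, footprints were clipped, reads on rRNA, snoRNA and tRNA were removed with Bowtie2 2.2.3, the rest was aligned to mm10 with HISAT2 2.1.0, and the authors deposited counts of footprints over the CDS of each gene (featureCounts, Gencode M24). How reads with several alignments were treated is not given in the sources used here. For RNA the deposited values were expected counts and TPM per transcript from kallisto 0.42.4 on poly(A) RNA, summed here per gene, with expected counts rounded.

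Footprints and RNA counts were fitted in 1 model with edgeR 4.0.16 (quasi-likelihood test, TMM factors on length-scaled counts, Benjamini-Hochberg adjustment over all 12705 genes), with offsets for CDS length and for kallisto's effective length, both weighted by TPM, after edgeR's filter on low counts by assay. High and low TE mean an adjusted p of at most 0.05 and a log2 TE of at least 1 or at most -1. CDS lengths and sequences came from Gencode M21 (GRCm38), which held a CDS for 22359 of 22438 genes. The share of windows in 1 locus was sought in M21 transcripts, since no genome was used. By rule, the text names the 12 highest and 12 lowest called genes with at least 10 RNA TPM, members of the 27 lists, the 10 genes with most footprints, Hbs1l, Pelo and Upf2; the lowest cleanly countable genes were added after their values were seen. Some genes that this rule names are not reported here. On counts simulated for this comparison with 12553 genes, 46 of 49 genes with a log2 TE of -2 and 50 of 50 at 2 were called, with 2 false calls among 12354. Of the high genes, 34 had under 10 RNA counts in every library and 9 had none, and of the low genes 459 had under 10 footprints in every library and 162 had none, so that these genes passed the filter through 1 assay. Floors cover counting error only.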

Additional observations from a re-analysis of the deposited data

How the results depend on the processing

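The number of high genes stayed within 1.5 times of 2217 under every setting run but 1, from 1637 to 2647, and that of low genes within 1.5 times of 2524 under all but 1, from 1867 to 3089. A test against a log2 TE of 1 itself (edgeR's glmTreat) gave 1472 high genes. A fit on cleanly countable genes, added after the data were seen, gave 1508 low genes. Leaving out 1 library at a time gave 2178 to 2356 high and 2466 to 2617 low genes. With the replicate number as a block there were 2236 high and 2523 low genes, but whether the numbers pair the samples is not known. Deviations of same-numbered libraries had correlations of 0.04, -0.10 and 0.30 over 10249 genes. Those of differently numbered libraries ran from -0.29 to 0.27. With 3 libraries per assay these values cannot decide the pairing. With DESeq2 1.42.0 there were 2175 and 2526, of which 2173 and 2498 were the same genes. With no length offsets there were 1910 and 2551, of which only 1231 and 1912 were the same genes, and 2 of 113 called genes followed across settings turned their sign: Sf3b5 to -0.14 and Npc2 to -0.034. A further 18 fell short of a call, the lowest of the high ones being Fosl2 at 0.20, Cdkn1b at 0.39, Polr3k at 0.48 and Sparc at 0.53, and 93 kept theirs. With RNA of protein-coding transcripts alone, Mtch2 turned its sign to 0.94. Without a single library, Lrp5 fell short of a call at -0.96 (without footprint replicate 3) and -0.996 (without RNA replicate 3), Ibtk at -0.91 and Mtch2 at -0.99 (without footprint replicate 2), and Sparc at 0.97 (without footprint replicate 2) and 0.997 (without RNA replicate 2). Footprints of the Pelo and Upf2 pool controls gave 2256 and 2272 high and 2478 and 2500 low genes. The other settings were DESeq2's way of scaling in edgeR, no filter and a mean of at least 50 counts, and the longest and the union CDS. Further ones were the CDS length reduced to windows in 1 locus, protein-coding transcripts, histones kept, Hbs1l-/- cells and limma. The cause of these shifts was not tested. With 3 libraries per assay, genes under about 10 footprints carry wide errors.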
